A study of Mus musculus with 11 samples.

Results

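Glycolysis transcripts were examined in gonadal white adipose tissue of 14-3-3ζKO and wild-type (WT) mice. They comprised 10 genes, namely Hk1, Hk2, Pfkl, Pfkfb3, Aldoa, Tpi1, Pgk1, Pgam1, Ldha and Slc16a3, each found by its symbol among the 42815 loci of the authors' gene table. All 10 were found, and all 10 had a mean of both groups of at least 1 FPKM. RNA had been sequenced from the whole fat pad of male C57Bl/6 mice aged 50 weeks, in 5 14-3-3ζKO and 6 WT libraries. 14-3-3ζKO mice lack the scaffold protein 14-3-3ζ, encoded by Ywhaz, throughout the body, so the deletion is not limited to adipocytes. All animals were housed singly. The labels give standard chow for both genotypes, while the study names a diet low in fat when it turns to this tissue, and which of these applied remains unclear. The labels number the libraries without naming an animal for each.

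Glycolysis splits glucose into pyruvate in the cytosol. Hexokinase traps glucose as its phosphate, phosphofructokinase commits it to the pathway, aldolase and triosephosphate isomerase make the triose phosphates, and the enzymes that follow harvest ATP and NADH. Lactate dehydrogenase turns pyruvate into lactate, which leaves the cell through monocarboxylate transporters. In white fat the pathway supplies glycerol phosphate for triglyceride synthesis and acetyl units for fatty acids, and insulin and the hypoxia-inducible factors are known to raise several of its genes. Most steps are served by isozymes with their own tissue pattern, of which Hk2 is the insulin-responsive hexokinase of fat and muscle.

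Promoter sequence is shown for the genes at the ends of the range of fold, Hk2 and Ldha with the highest and Tpi1 and Pgam1 with the lowest, because hypoxia-inducible factors bind a short core that can be read in it. Each line holds the 250 bases before the annotated start in RefSeq (build GRCm38.p6), 5′ to 3′ on the strand of the gene, and capitals mark the core ACGTG or GCGTG on either strand.
Hk2: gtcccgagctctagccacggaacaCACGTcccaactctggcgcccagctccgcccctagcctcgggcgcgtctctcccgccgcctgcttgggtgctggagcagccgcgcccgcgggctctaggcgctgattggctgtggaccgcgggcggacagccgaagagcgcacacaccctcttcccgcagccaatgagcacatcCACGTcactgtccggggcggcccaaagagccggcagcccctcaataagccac
Ldha: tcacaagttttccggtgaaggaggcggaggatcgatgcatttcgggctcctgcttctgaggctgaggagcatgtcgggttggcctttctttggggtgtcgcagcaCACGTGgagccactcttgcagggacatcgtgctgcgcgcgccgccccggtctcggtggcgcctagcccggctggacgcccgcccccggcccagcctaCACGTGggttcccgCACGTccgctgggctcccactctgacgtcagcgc
Tpi1: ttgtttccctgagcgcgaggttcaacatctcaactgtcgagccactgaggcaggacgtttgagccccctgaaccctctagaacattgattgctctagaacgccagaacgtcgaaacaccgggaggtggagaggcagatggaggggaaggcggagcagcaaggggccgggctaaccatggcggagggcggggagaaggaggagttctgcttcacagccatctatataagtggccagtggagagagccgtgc
Pgam1: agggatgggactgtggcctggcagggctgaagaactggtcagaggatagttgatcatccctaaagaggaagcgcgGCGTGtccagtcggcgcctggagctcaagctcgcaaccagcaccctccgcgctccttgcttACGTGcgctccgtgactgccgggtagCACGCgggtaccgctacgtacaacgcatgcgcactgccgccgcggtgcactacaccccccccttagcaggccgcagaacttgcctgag

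The Hk2 window (chr6:82774455-82774704, minus strand) held the core at 2 places, beginning 226 and 52 bases before the start. The Ldha window (chr7:46845554-46845803, plus strand) held it at 3 places, and 2 of these were the palindrome CACGTG, which reads as the core on both strands and is also the E-box bound by Myc and the carbohydrate-response factors. The Pgam1 window (chr19:41911621-41911870, plus strand) held 3 matches, although its transcript was nearly level between the genotypes. The Tpi1 window (chr6:124814159-124814408, minus strand) held 0. Over all 10 genes, which all matched a RefSeq promoter, 6 held ACGTG, 2 held GCGTG and 7 held either. Among 27025 promoter windows of the same length, 16.6% held ACGTG, 28.2% held GCGTG, 38.6% held either and 6.05% held CACGTG. These are matches of letters only, and binding was not measured.

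Before the genes are compared, the libraries and the kind of value have to be described. FPKM are fragment numbers corrected for transcript length and for the size of the library, so levels of different genes can be set side by side. The gene table holds 1 FPKM per genotype for each locus, and FPKM per library were deposited for 86 loci only. None of those 86 loci was one of the 10 genes or of 25 further glycolytic isozymes and regulators, so 0 of these 35 genes had a replicate value. The values below are therefore the authors' group values, given without SD or test. The authors' own test columns were not used, and no difference in a glycolysis gene is set here against the spread between mice. Where both kinds of value existed, the group value equalled the mean of its libraries in 171 of 172 cases, to a relative tolerance of 0.0001, so 1 library can carry a group value. Ywhaz had 14.5 to 38.2 FPKM in the 14-3-3ζKO libraries, against 94.2 to 118.3 FPKM in the WT libraries, with no overlap. WT replicates 1, 3 and 4 stood apart. They exceeded the 8 other libraries for all 8 macrophage markers with values per library, whose sum was 155 to 368 FPKM in 14-3-3ζKO libraries, against 2783 to 3601 FPKM in WT replicates 1, 3 and 4 and 298 to 628 FPKM in WT replicates 2, 5 and 6. Values per library exist only for loci that the authors had called, so these 8 markers were already selected for a difference between the genotypes. The 3 replicates were singled out from the same values. The glycolysis genes cannot be given without these 3 libraries. Depth per library is unknown, and in whole tissue fewer cells of a type and less RNA per cell cannot be told apart.

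Glycolysis transcripts stood at nearly the same level in both genotypes, with Hk2 as the exception. Fold was taken as log2[(14-3-3ζKO FPKM + 1)/(WT FPKM + 1)] and counted as past 2-fold at 1 or more in either direction. By this measure 1 of the 10 genes, Hk2, was higher in 14-3-3ζKO fat and 0 were lower, whereas 9.67% of the 15245 loci with a mean of at least 1 FPKM were past 2-fold higher and 4.31% past 2-fold lower. The 1 gene of 10 is thus close to the background share. Among the 9 glycolysis genes with a mean over 10 FPKM the count was again 1 higher and 0 lower, beside 5.57% higher and 4.93% lower of 7140 such loci. The median fold of the 10 genes was 0.07 on the log2(FPKM + 1) scale and that of all 15245 loci 0.04, and division of each genotype's column by its sum turned these to -0.05 and -0.07. The ratio of the group FPKM lay between 0.9 and 1.1 in 6 of the 10 genes, and in 21.9% of all 15245 loci. These shares are not matched for level, because 9 of the 10 genes had a mean over 10 FPKM and no share was taken for such loci alone. The summed level of the 10 genes was 1899 FPKM in 14-3-3ζKO and 1653 FPKM in WT fat, and Aldoa and Ldha made up 87.9% of that difference.

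**Figure D1:**
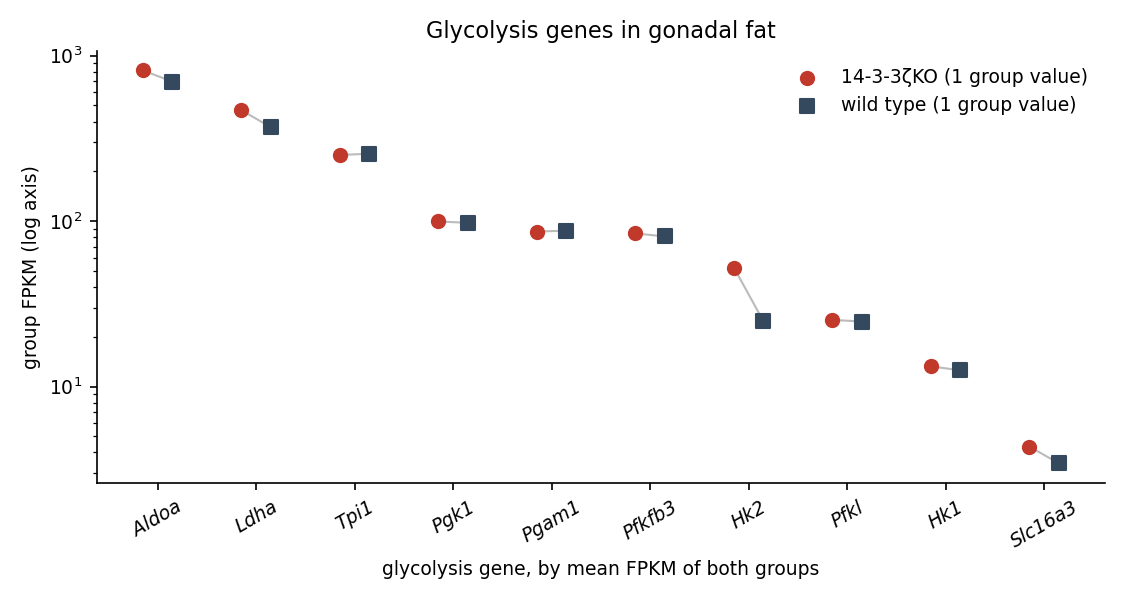
Group FPKM (log axis) of the 10 glycolysis genes, ordered by the mean of both groups, with 14-3-3ζKO as circles and WT as squares. Each point is 1 value per genotype without an error. Only the Hk2 pair is separated by more than 2-fold (52.4 FPKM in 14-3-3ζKO and 24.8 FPKM in WT).

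At the entry of the pathway the hexokinases parted. Hk2 (chromosome 6, 82675019 to 82724448, NCBIM37, minus strand) had 52.4 FPKM in 14-3-3ζKO fat and 24.8 FPKM in WT fat. Its log2 fold was 1.05 and its ratio 2.11, and 90.9% of all expressed loci had a lower fold. With the columns divided by their sums, the log2 fold of Hk2 was 0.93 and the count of genes past 2-fold became 0. Hk1 (chromosome 10, 61731603 to 61842656, minus strand), the broadly expressed hexokinase bound to mitochondria, had 13.2 FPKM in 14-3-3ζKO and 12.5 FPKM in WT fat. Hk2 was therefore 3.95 times as abundant as Hk1 in 14-3-3ζKO fat and 1.98 times in WT fat. The locus of Hk2 held no other protein-coding gene, so the value is not shared with a neighbour.

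The control points at phosphofructokinase were level. Pfkl (chromosome 10, 77449692 to 77472828, minus strand), the liver-type phosphofructokinase that is also expressed in fat, had 25.3 FPKM in 14-3-3ζKO and 24.7 FPKM in WT tissue. Its locus in the table also covers the coding gene 1810043G02Rik. Pfkfb3 (chromosome 2, 11393057 to 11423728, minus strand) makes fructose 2,6-bisphosphate, the strongest known activator of phosphofructokinase. It had 84.3 FPKM in 14-3-3ζKO and 80.8 FPKM in WT tissue, a log2 fold of 0.06.

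The enzymes from aldolase to phosphoglycerate mutase were abundant and differed little. Aldoa (chromosome 7, 133938748 to 133944265, minus strand), the aldolase of muscle and most other tissues, led the pathway with 815 FPKM in 14-3-3ζKO and 697 FPKM in WT fat. Its row also names Ppp4c, a phosphatase subunit, so the value belongs to both genes. Of all expressed loci, 99.0% had a lower mean level. Tpi1 (chromosome 6, 124760604 to 124764314, minus strand), triosephosphate isomerase, had 251 FPKM in 14-3-3ζKO and 255 FPKM in WT fat, a log2 fold of -0.02. Its locus overlaps the coding gene Spsb2. Pgk1 (chromosome X, 103382439 to 103399038, plus strand), which makes the first ATP of the payoff phase, had 99.5 FPKM in 14-3-3ζKO and 97.6 FPKM in WT fat. Pgam1 (chromosome 19, 41986361 to 41993154, plus strand), the broadly expressed phosphoglycerate mutase, had 86.5 FPKM in 14-3-3ζKO and 87.5 FPKM in WT fat. None of these last 3 genes differed by more than 2% between the genotypes.

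The lactate end of the pathway stood slightly higher in 14-3-3ζKO fat, short of 2-fold. Ldha (chromosome 7, 54096845 to 54110997, plus strand), the lactate dehydrogenase subunit that favours lactate formation, had 468 FPKM in 14-3-3ζKO and 369.5 FPKM in WT tissue, a log2 fold of 0.34. Slc16a3 (chromosome 11, 120809794 to 120822182, plus strand), the lactate exporter MCT4, was the least abundant of the 10 with 4.33 FPKM in 14-3-3ζKO and 3.43 FPKM in WT tissue. Its locus also covers Csnk1d, and the gene itself spans 22.6% of it. Since no spread is known for these genes, the order of neighbours such as Pgk1, Pgam1 and Pfkfb3, all between 80.8 and 99.5 FPKM, cannot be told from equal levels.

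The rest of the pathway was read from 25 further isozymes and regulators, of which 24 reached a mean of 1 FPKM. Of these, 6 were past 2-fold higher in 14-3-3ζKO fat, 1 was past 2-fold lower and 17 were not past it, with a median log2 fold of 0.15. Of all 15245 expressed loci, 9.67% were past 2-fold higher and 4.31% lower. These shares belong beside each count at this cut in the lists below. The abundant enzymes that complete the pathway lay among the 17. Gapdh had 433 FPKM in 14-3-3ζKO and 459.6 FPKM in WT fat, Eno1 (enolase) had 169 FPKM in 14-3-3ζKO and 181 FPKM in WT fat, and Gpi1 (glucose phosphate isomerase) had 149 FPKM in 14-3-3ζKO and 135 FPKM in WT fat. Pkm2, the pyruvate kinase gene, was the lowest in fold of these enzymes with 184 FPKM in 14-3-3ζKO and 257 FPKM in WT fat (log2 fold -0.48). The Gapdh locus also covers Iffo1, and the gene spans 21.7% of it. Gapdh and Pgk1 are known to have many processed pseudogenes, with which reads could be divided.

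**Figure D2:**
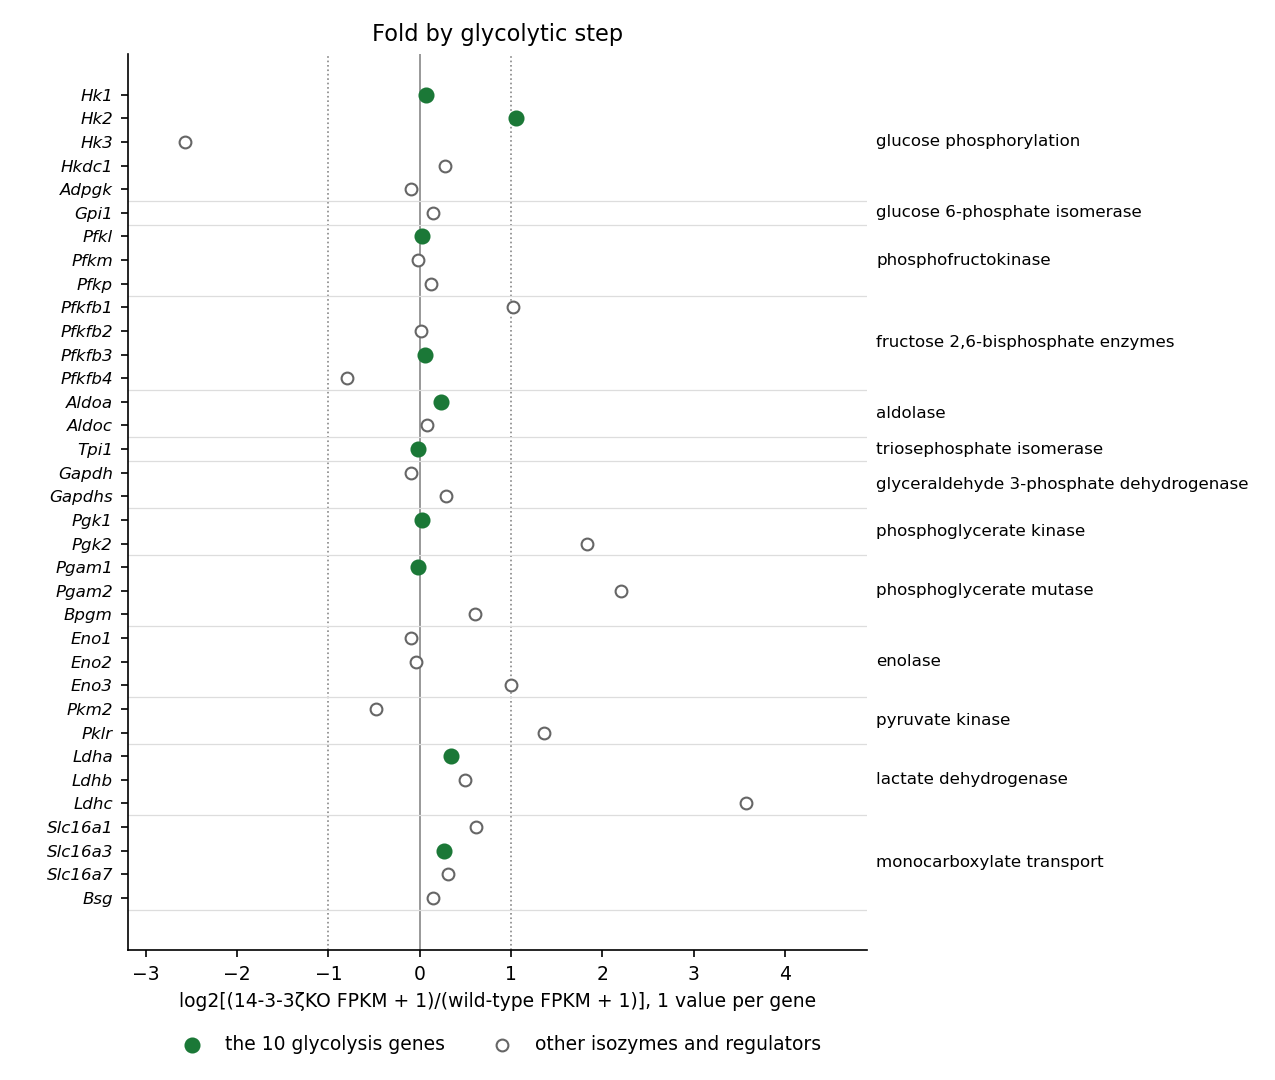
Log2 fold of the 10 glycolysis genes (filled) and 25 other isozymes and regulators (open) on the log2(FPKM + 1) scale, grouped by step from glucose phosphorylation at the top to monocarboxylate transport at the bottom. Dotted lines mark 2-fold, and each point is 1 value without an error. The filled points lie near 0 except Hk2 at 1.05, and the points farthest from 0 are isozymes such as Ldhc at 3.58 and Hk3 at -2.57.

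Hk3, a hexokinase of myeloid cells, was the 1 isozyme past 2-fold lower, with 2.36 FPKM in 14-3-3ζKO and 18.9 FPKM in WT fat (log2 fold -2.57). Only 0.492% of expressed loci had a lower fold. Its locus also reaches Unc5a, and the gene spans 21.4% of it. Beside it, 14 of 16 macrophage markers were past 2-fold lower and 0 higher, with a median log2 fold of -2.70 and summed levels of 1013 FPKM in 14-3-3ζKO and 5991 FPKM in WT fat, and none of them was at 0. Trem2, Emr1, Gpnmb and Mpeg1 had the largest of these folds, from -3.49 to -2.92, and Lyz2 (334 FPKM in 14-3-3ζKO, 2311 FPKM in WT) and Lgals3 (308 FPKM in 14-3-3ζKO, 1334 FPKM in WT) were the most abundant. The part of macrophages in the Hk3 value was not tested, because Hk3 has no value per library.

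The composition of the hexokinase step differed as well. Over the 5 glucose-phosphorylating enzymes examined the summed level was 78.6 FPKM in 14-3-3ζKO and 67.3 FPKM in WT fat, a ratio of 1.17. Hk2 held 66.7% of that sum in 14-3-3ζKO and 36.8% in WT fat, Hk3 held 3.002% in 14-3-3ζKO and 28.1% in WT fat, and Hk1 held 16.9% in 14-3-3ζKO and 18.6% in WT fat. Adpgk, the ADP-dependent glucokinase, had 10.3 FPKM in 14-3-3ζKO and 11.01 FPKM in WT fat. Hkdc1 stayed below 1 FPKM in both genotypes. The step as a whole was thus closer between genotypes than either Hk2 or Hk3.

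**Figure D3:**
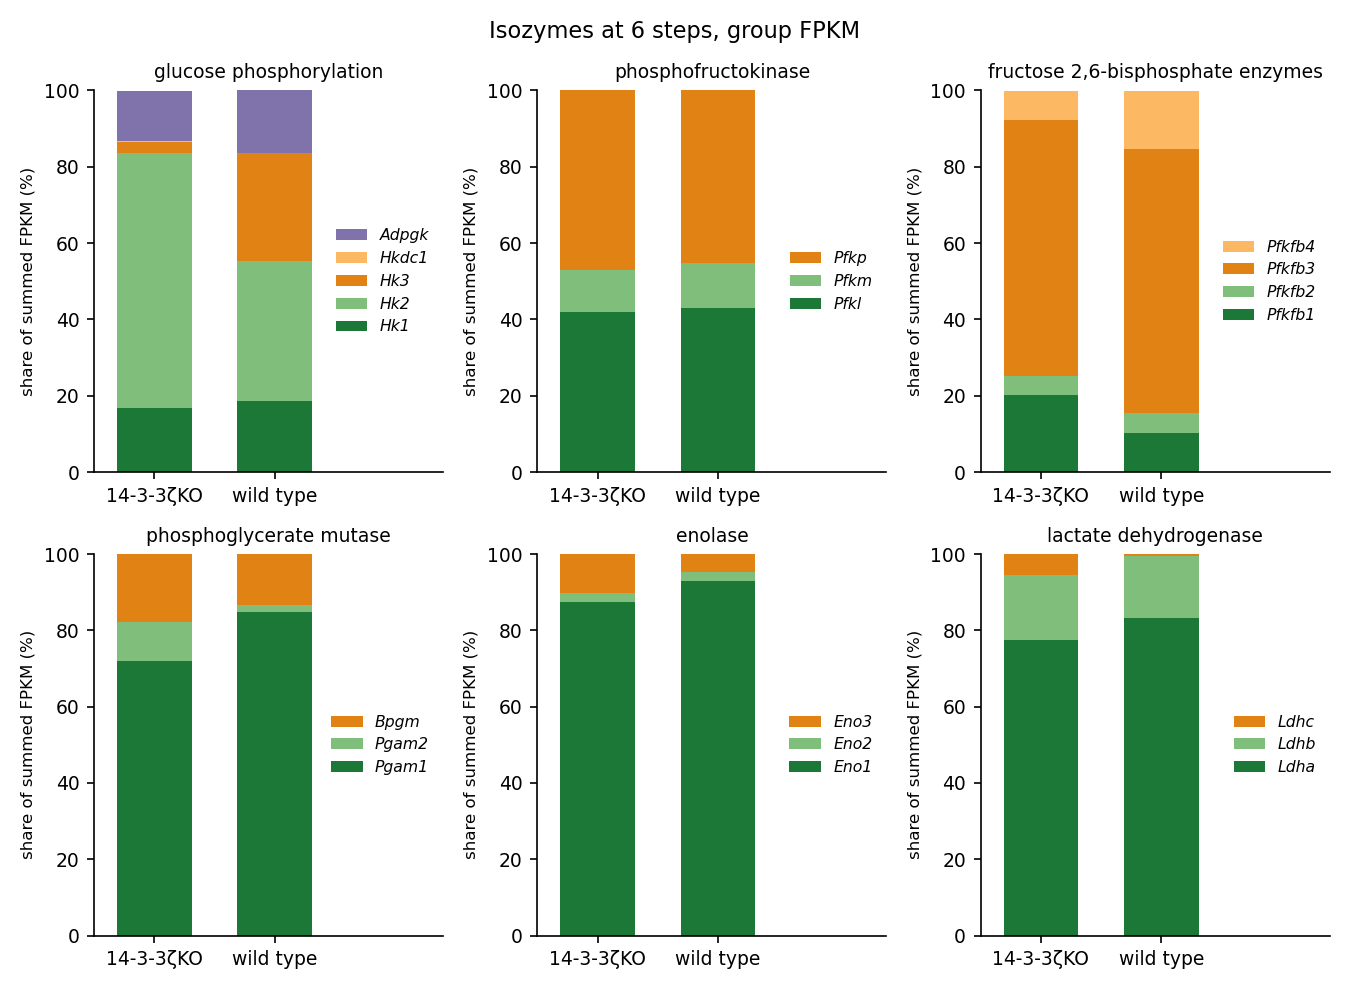
Share (%) of the summed group FPKM held by each isozyme at 6 steps, with 14-3-3ζKO as the left bar and WT as the right bar of each panel. Hk2 holds 66.7% of the hexokinase step in 14-3-3ζKO and 36.8% in WT fat, while the phosphofructokinase bars are nearly the same.

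As with Hk2 at the hexokinase step, the isozyme with the largest share at the other steps was the same in both genotypes. Phosphofructokinase was divided among Pfkp (47.0% in 14-3-3ζKO, 45.3% in WT), Pfkl (42.0% in 14-3-3ζKO, 43.1% in WT) and Pfkm (10.96% in 14-3-3ζKO, 11.7% in WT). Pfkp, the platelet type, had 28.3 FPKM in 14-3-3ζKO and 26.0 FPKM in WT fat, and Pfkm, the muscle type, had 6.59 FPKM in 14-3-3ζKO and 6.71 FPKM in WT fat. The Pfkp locus also covers Pitrm1 and the Pfkm locus Senp1. Among the bifunctional enzymes Pfkfb3 held 67.1% in 14-3-3ζKO and 69.1% in WT fat. Pfkfb4 had 9.86 FPKM in 14-3-3ζKO and 18.0 FPKM in WT fat (log2 fold -0.80), and Pfkfb2, whose locus also covers Yod1, had 6.00 FPKM in 14-3-3ζKO and 5.96 FPKM in WT fat. Over 13 steps as grouped here, the ratio of the summed level in 14-3-3ζKO to that in WT fat ranged from 0.728 at pyruvate kinase to 1.36 at lactate dehydrogenase. Of the 13 sums 0 were past 2-fold. The sum for monocarboxylate transport took in Bsg, a chaperone and not a carrier, which held 89.0% of it in 14-3-3ζKO and 91.2% in WT fat. Its ratio of 1.14 is therefore mostly that of Bsg, and the carriers alone were not summed. Rows shared with a neighbouring gene, such as that of Aldoa, also entered these sums.

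The 6 isozymes past 2-fold higher were mostly those known from other tissues. Ldhc, the lactate dehydrogenase of sperm, had 32.8 FPKM in 14-3-3ζKO and 1.82 FPKM in WT fat, a log2 fold of 3.58. Pgk2, the phosphoglycerate kinase of male germ cells, had 8.79 FPKM in 14-3-3ζKO and 1.74 FPKM in WT fat. Both have close relatives in Ldha and Pgk1, between which reads could be divided. Beside them, 6 of 8 spermatid markers were past 2-fold higher and 0 lower (median 2.41), with summed levels of 641 FPKM in 14-3-3ζKO and 88.5 FPKM in WT fat and none at 0. Tnp1, Tnp2, Prm1 and Akap4 had the largest of these folds (2.46 to 4.43). Prm2 had the highest mean of both groups, with 150.0 FPKM in 14-3-3ζKO and 28.5 FPKM in WT fat. Gapdhs, the sperm form of Gapdh, had 87.4 FPKM in 14-3-3ζKO and 71.1 FPKM in WT fat, but its row also names Tmem147. Epididymal markers ran the other way, with 1 of 8 past 2-fold lower (Crisp1, in a row with Crisp3), all 8 below 0 in log2 fold, a median of -0.83 and sums of 10212 FPKM in 14-3-3ζKO and 17335 FPKM in WT fat. The most abundant were Gpx5 (3785 FPKM in 14-3-3ζKO, 7450 FPKM in WT) and Lcn5 (2141 FPKM in 14-3-3ζKO, 2737 FPKM in WT), and none was at 0. The part of testicular or epididymal tissue in these values was not tested.

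Pklr, the pyruvate kinase of liver and red cells, had 3.67 FPKM in 14-3-3ζKO and 0.817 FPKM in WT fat (log2 fold 1.36). The Pklr locus also covers Hcn3. Beside it, 8 of 8 liver markers were past 2-fold higher (median 2.86, sums 828 FPKM in 14-3-3ζKO and 85.9 FPKM in WT), none at 0. The largest were Alb (402 FPKM in 14-3-3ζKO, 28.5 FPKM in WT), Apoa1 (101 FPKM in 14-3-3ζKO, 8.60 FPKM in WT), Apoc3 and Ttr, and Apoa2 was the next most abundant after Alb. The part of liver RNA in the Pklr value was not tested. Of 6 kidney markers 0 reached a mean of 1 FPKM, and 1 of the 6 was listed at 0 in WT fat. Aqp2 and Kap had the highest means of both groups, with 0.792 and 0.342 FPKM in 14-3-3ζKO fat.

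The remaining isozymes past 2-fold were those of muscle and Pfkfb1. Eno3, the muscle enolase, had 19.7 FPKM in 14-3-3ζKO and 9.36 FPKM in WT fat (ratio 2.11), and its locus also covers Pfn1. Pgam2, the muscle phosphoglycerate mutase, had 12.3 FPKM in 14-3-3ζKO and 1.88 FPKM in WT fat, but its locus also covers Dbnl, Mrps24 and Urgcp, and the gene spans 2.1% of it, which leaves the value uncertain. Of the skeletal muscle markers 5 of 8 measured reached 1 FPKM and 0 were past 2-fold (median 0.29, sums 50.0 FPKM in 14-3-3ζKO and 29.7 FPKM in WT), with Myl1 (42.7 FPKM in 14-3-3ζKO, 24.7 FPKM in WT) and Mylpf (2.13 FPKM in 14-3-3ζKO, 1.64 FPKM in WT) the most abundant. Pfkfb1, the bifunctional enzyme of liver and muscle, had 25.5 FPKM in 14-3-3ζKO and 12.1 FPKM in WT fat. Its locus reaches Alas2, the haem synthesis enzyme of red cells, which had 22.1 FPKM in 14-3-3ζKO and 8.26 FPKM in WT fat in its own row. All 7 expressed red cell markers of 8 were past 2-fold higher (median 1.83, sums 5716 FPKM in 14-3-3ζKO and 1634 FPKM in WT). The largest were Slc4a1, Hba-a2, Hba-a1 and Hbb-b2 (log2 fold 1.83 to 2.13), and the most abundant was Hbb-b1 (2488 FPKM in 14-3-3ζKO, 781 FPKM in WT). The globin copies are nearly identical, and their single values are uncertain. For Slc4a1, the red cell anion exchanger, 14-3-3ζKO replicate 1 alone supplied 94.7% of the summed 14-3-3ζKO values. With the columns divided by their sums, Eno3 and Pfkfb1 had log2 folds of 0.89 and 0.91, and recentred on the median locus 0.97 and 0.98, so 4 of the 6 isozymes stayed past 2-fold under either. Whether 1 library likewise carried Ldhc, Pklr or Hk2 was not tested.

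The isozymes left over were not past 2-fold. Ldhb, the subunit that favours pyruvate, had 104 FPKM in 14-3-3ζKO and 73.2 FPKM in WT fat, and the ratio of Ldha to Ldhb was 4.52 in 14-3-3ζKO and 5.05 in WT fat. Bpgm, which makes 2,3-bisphosphoglycerate in red cells, had 21.5 FPKM in 14-3-3ζKO and 13.7 FPKM in WT fat. Aldoc and Eno2, the brain forms, had 9.54 and 4.45 FPKM in 14-3-3ζKO fat, against 8.94 and 4.61 FPKM in WT fat. Of the other lactate carriers, Slc16a1 (MCT1) had 18.1 FPKM in 14-3-3ζKO and 11.5 FPKM in WT fat, and Slc16a7 (MCT2) had 9.85 FPKM in 14-3-3ζKO and 7.75 FPKM in WT fat. Bsg, the chaperone that brings carriers such as MCT1 to the membrane, had 262 FPKM in 14-3-3ζKO and 236 FPKM in WT fat.

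The pathways joined to glycolysis were counted in the same way, beside 9.67% higher and 4.31% lower of all expressed loci. Of 7 expressed glucose transporters of 8, 0 were past it (median 0.33). Slc2a4, the insulin-responsive transporter of fat, had 47.2 FPKM in 14-3-3ζKO and 37.3 FPKM in WT tissue, and Slc2a1, the widespread one, had 20.5 FPKM in 14-3-3ζKO and 10.8 FPKM in WT tissue (log2 fold 0.86). Of 14 genes of pyruvate fate 1 was higher (median 0.36), Pdk4, a kinase that shuts pyruvate dehydrogenase, with 114 FPKM in 14-3-3ζKO and 22.03 FPKM in WT fat (log2 fold 2.32). The subunits of the mitochondrial pyruvate carrier, listed as Brp44l (302 FPKM in 14-3-3ζKO, 196 FPKM in WT) and Brp44 (226 FPKM in 14-3-3ζKO, 128 FPKM in WT), were the most abundant of that list. None of 8 pentose phosphate genes was past 2-fold (median -0.06). Taldo1 (292 FPKM in 14-3-3ζKO, 248 FPKM in WT) and Tkt (134 FPKM in 14-3-3ζKO, 117 FPKM in WT) had the highest means of both groups. Of 14 glycogen genes 1 was higher (median 0.16), the muscle phosphorylase Pygm with 5.33 FPKM in 14-3-3ζKO and 1.99 FPKM in WT fat. The most abundant there were Pgm2, a phosphoglucomutase (59.7 FPKM in 14-3-3ζKO, 53.5 FPKM in WT), and Ugp2, which makes UDP-glucose (61.0 FPKM in 14-3-3ζKO, 49.0 FPKM in WT).

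Of 11 genes of gluconeogenesis and glycerol metabolism 3 were higher and 0 lower (median 0.25), beside 9.67% higher and 4.31% lower of all expressed loci. They were Fbp1 (14.6 FPKM in 14-3-3ζKO, 1.9998 FPKM in WT), Fbp2 (7.25 FPKM in 14-3-3ζKO, 1.46 FPKM in WT) and G6pc (3.51 FPKM in 14-3-3ζKO, 0.41 FPKM in WT), which oppose phosphofructokinase and hexokinase in liver and, for Fbp2, muscle. They stood beside the liver markers given above, whose part was not tested. Gpd1, which makes glycerol phosphate from a glycolytic triose, was level with 285 FPKM in 14-3-3ζKO and 279 FPKM in WT fat, and Mdh1 had 282 FPKM in 14-3-3ζKO and 227 FPKM in WT fat.

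Of 23 expressed genes of the hypoxia-inducible factor (HIF) pathway, 3 were higher and 0 lower (median 0.14), beside 9.67% higher and 4.31% lower of all expressed loci. The 3 of 23 is thus not far from the background share. Without regard to the cut, 15 of the 23 had a log2 fold above 0 and 8 below. The median of all expressed loci was itself above 0, at 0.04. With the columns divided by their sums, the median of this list became 0.02 and that of all expressed loci -0.07. Bnip3, a mitophagy receptor, had 538 FPKM in 14-3-3ζKO and 208 FPKM in WT fat, Ndrg1 had 78.7 FPKM in 14-3-3ζKO and 36.0 FPKM in WT fat, and Ddit4, an inhibitor of mTORC1, had 65.0 FPKM in 14-3-3ζKO and 30.8 FPKM in WT fat. With the columns divided by their sums, Ndrg1 and Ddit4 had log2 folds of 0.99 and 0.93, short of 2-fold. Bnip3l was the next most abundant with 122 FPKM in 14-3-3ζKO and 109 FPKM in WT fat. The factors themselves, Hif1a (18.2 FPKM in 14-3-3ζKO, 19.2 FPKM in WT) and Epas1 (51.6 FPKM in 14-3-3ζKO, 48.5 FPKM in WT), were level, and Vegfa, a classic target, had 106 FPKM in 14-3-3ζKO and 53.8 FPKM in WT fat. These last 3 genes were chosen after their values were seen. Among 12 expressed genes that signal to glycolysis 1 was higher (median 0.21), Txnip, an inhibitor of glucose uptake that responds to glucose, with 1026 FPKM in 14-3-3ζKO and 484 FPKM in WT fat (log2 fold 1.08, or 0.96 with the columns divided by their sums). Akt2, the insulin signalling kinase, had 65.1 FPKM in 14-3-3ζKO and 74.9 FPKM in WT fat.

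**Figure D4:**
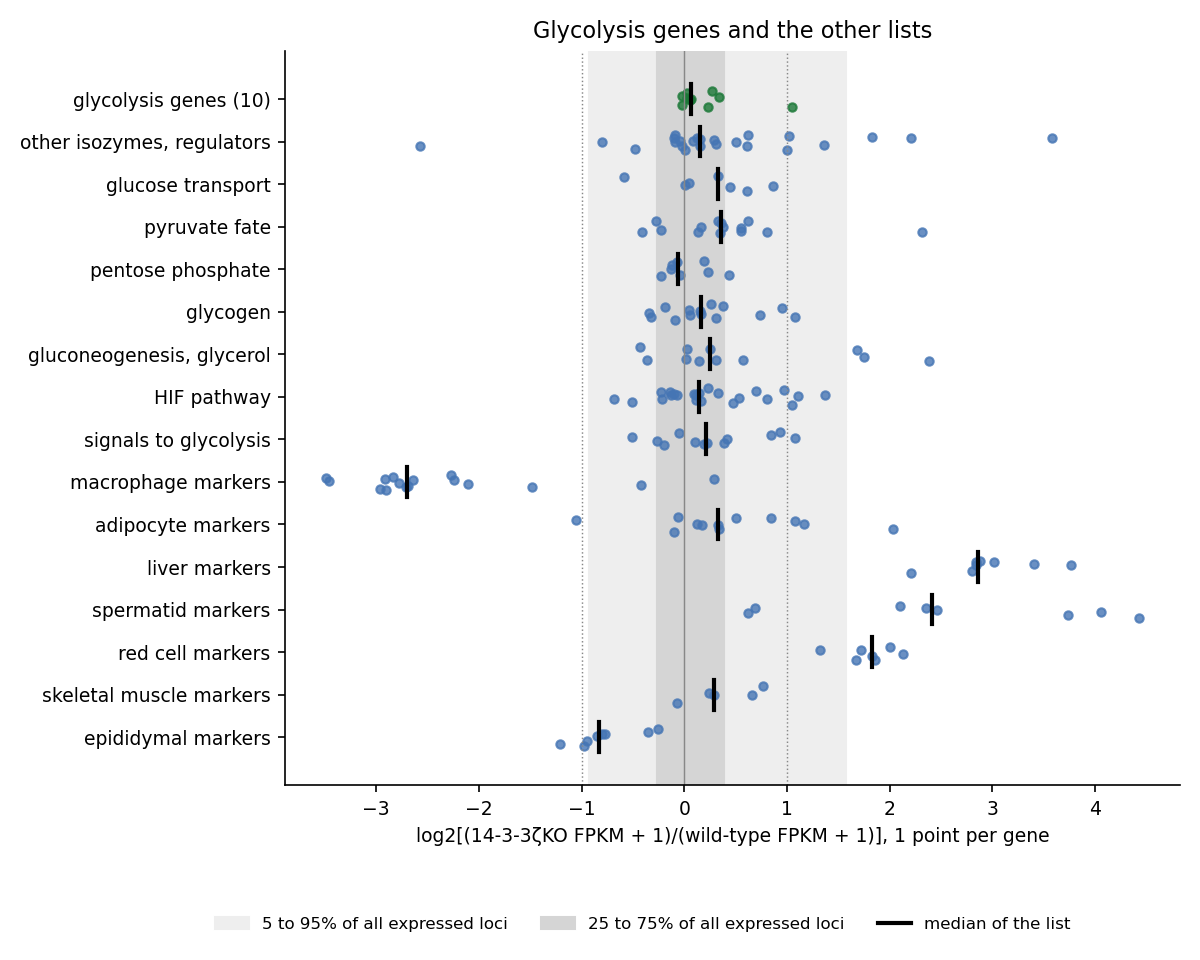
Log2 fold on the log2(FPKM + 1) scale of each expressed gene in the glycolysis list (top) and in 15 other lists, with a black bar at each median. Shaded bands hold 25 to 75% (-0.27 to 0.39) and 5 to 95% (-0.93 to 1.57) of all 15245 expressed loci. The glycolysis genes cluster near 0 (median 0.07), while macrophage markers lie at the left (median -2.70) and liver and spermatid markers at the right (medians 2.86 and 2.41).

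Markers of the fat cell itself were read in the same way. Of 12 adipocyte markers 3 were past 2-fold higher and 1 lower (median 0.33). These were Cfd, Fabp4 and Retn (log2 fold 2.03, 1.17 and 1.08, the last 0.96 with the columns divided by their sums) and Lep, the hormone leptin (278 FPKM in 14-3-3ζKO, 579 FPKM in WT). Fabp4, the lipid carrier of adipocytes, was the most abundant with 31136 FPKM in 14-3-3ζKO and 13823 FPKM in WT fat, followed by Cfd (adipsin) with 7755 FPKM in 14-3-3ζKO and 1899 FPKM in WT fat. Summed over the list the level was 46316 FPKM in 14-3-3ζKO and 21788 FPKM in WT fat. Most of each sum, and most of the difference, came from Fabp4 and Cfd. Of the 12 markers 8 were not past 2-fold in either direction, so the sum does not describe the list as a whole. The part of cell composition in the glycolysis values was not tested. Of the expressed markers of other cells, 1 of 8 endothelial (Cldn5, median 0.15), 2 of 5 neutrophil (Retnlg and S100a9, median 0.39), 2 of 5 B cell (Cd79b and Pax5, median 0.90) and 0 of 5 T cell markers (median 0.13) were past 2-fold higher, and 0 were lower. The most abundant of these were Cldn5 and Pecam1, S100a8 and S100a9, Cd79b and Cd79a, and Cd3g and Cd2, and 1 of the 8 neutrophil markers measured was listed at 0 in 14-3-3ζKO fat.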

How the data were processed

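RNA of gonadal white adipose tissue was sequenced by the authors as paired-end TruSeq libraries. The submitters' notes name TopHat2 2.0.11 for alignment, the build NCBIM37, Cufflinks 2.2.0 for quantification and Cuffdiff for the comparison, and no source used here states how Cuffdiff scaled the libraries. The authors deposited FPKM as 1 value per genotype for 42815 loci, and FPKM per library for 86 loci. The gene table also holds the authors' fold changes, test statistics, p-values, q-values and significance calls, which were not used. No columns beyond these held values of samples.

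Libraries were grouped by their labels. The 10 genes, all of which the authors' status column marks OK, were found by symbol, and a symbol with several rows was represented by the row of highest mean FPKM. Folds used a pseudocount of 1 FPKM, which understates the change of low genes, and a mean of both groups of at least 1 FPKM defined an expressed locus. The members and lists were chosen with earlier results of these data known, and the liver, epididymal and kidney lists were added after values had been seen. Named genes were the 10 genes, Ywhaz, every other isozyme with a mean of at least 1 FPKM and, in each list, up to 4 genes past 2-fold and the 2 with the highest mean. Gene positions come from GENCODE vM1 on NCBIM37, 1-based, and promoters from RefSeq on GRCm38.p6, for which the first entry of a symbol was used. Alternatives were a pseudocount of 0.1 FPKM, division by column sums, recentring on the median locus, summed rows, other folds and floors, and, chosen after seeing the data, loci with status OK only and shares without rows naming several genes. A few genes of the lists are not reported here, and counts, medians and sums leave them out. The fold and call rules were tested on simulated data. Analysis used python 3.11.15, numpy 2.4.6, pandas 2.3.3 and matplotlib 3.10.9.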

Additional observations from a re-analysis of the deposited data

Results flagged for a closer look

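Among the markers given beside the glycolysis genes, the level of Slc4a1 in 14-3-3ζKO replicate 1 lay far from the other libraries of its group. It was 20.8 FPKM there, against 0.0508 to 0.526 FPKM in the 4 other 14-3-3ζKO libraries and 0.0275 to 0.452 FPKM in the WT libraries, and the gap to the nearest library was 0.977 of the range of the group. The criterion was Dixon's 95% critical value, which by its construction singles out about 1 group in 20 by chance. The glycolysis genes have no values per library and could not be examined in the same manner.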

How the results depend on the processing

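Dividing each genotype's column by its sum over all loci had the largest effect on the glycolysis genes. It took Hk2 to a log2 fold of 0.93, the number of the 10 genes past 2-fold higher to 0 and their median to -0.05, while the median of all expressed loci became -0.07. The median of the T cell markers reversed to -0.04 under the same scaling. The count of 1 higher and 0 lower remained the value under each other alternative, with medians of 0.03 to 0.07. HIF pathway genes past 2-fold higher numbered 1 under the sum scaling and 6 at 1.5-fold in place of 3, B cell markers 0 under the sum scaling and 1 when recentred in place of 2, and the gene that signals to glycolysis was lost under the sum scaling. The isozymes past 2-fold higher numbered 4 in place of 6 under the sum scaling and when recentred, without Eno3 and Pfkfb1, and adipocyte markers 2 in place of 3 under the sum scaling, without Retn. At 1.5-fold, where 17.5% of all loci were higher and 10.5% lower, the other isozymes had 8 higher in place of 6 and 2 lower in place of 1, glucose transport 2 higher and 1 lower in place of 0, pyruvate fate, glycogen and the genes that signal to glycolysis 3 higher each in place of 1, and epididymal markers 6 lower in place of 1. Epididymal markers past 2-fold lower numbered 3 under the sum scaling and 2 when recentred. With a mean of at least 10 FPKM, the isozymes past 2-fold higher numbered 3 in place of 6, and those of glycogen and gluconeogenesis became 0. Over all results and alternatives 576 values were labelled unchanged, 56 moved and 1 reversed. For a single gene, unchanged meant the same side of the 2-fold cut. Hk1, Pfkl, Pgk1 and Pfkfb3 were therefore labelled unchanged although their log2 folds turned negative under the sum scaling. Counts that changed by at most 1.5-fold and medians that shifted by at most 0.1 were also labelled unchanged. Each of the 10 genes had 1 row, so summed rows could not change its value. No paired analysis was possible because no glycolysis gene has values per library. For the same reason the permutation test, limma, leave-one-out and the replicate block were not run, and the depth behind these FPKM is unknown.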
